A study of Danio rerio with 32 samples.

Results

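The genes of ISG15 conjugation and of the immunoproteasome were described across 2 experiments on the RNA-editing enzyme Adar in zebrafish. The genes were selected on the authors' own comparison at 7 days post-fertilization (dpf), as those rows of their table of genes higher in adar-/- larvae that were named isg15, usp18, uba7, psmb8a, psmb13a or CABZ01058333.1, or whose name began with psmb or psme. The rule took 7 of the 193 rows, since psmb12 joined the 6 named genes and no psme gene was listed. At 7 dpf, homozygous adar-/- larvae, which carry a CRISPR/Cas9 frameshift in the second exon and come from incrossed heterozygous fish, were compared with wild-type siblings, with 3 poly(A)-selected libraries in each group. Each of these libraries was made from 3 larvae, and the authors give AB as the background of the mutant line. The mothers of the larvae carried a wild-type adar allele. At 12 hours post-fertilization (hpf), uninjected wild-type (ABTL) embryos were compared with embryos injected at the 1-cell stage with 1 ng of a translation-blocking adar morpholino (Adar KD) or with 50 pg of adar mRNA (Adar OE), with 3 rRNA-depleted libraries of 20 pooled embryos in each group. The methods name a single mating pair for the 12 hpf pools, so that p-values measure the spread between pools of its offspring, and as the controls were uninjected, the effect of injection and that of Adar cannot be told apart. The rule used 7 dpf alone and no value of 12 hpf. The named genes and the lists were, however, chosen with earlier results of these data known.

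ISG15 is a small ubiquitin-like protein that interferon induces and that is joined to other proteins by a cascade of enzymes. In mammals UBA7 is the activating enzyme of this cascade, UBE2L6 the conjugating enzyme and HERC-family proteins are ligases, while USP18 removes ISG15 again and also dampens the signal of the type I interferon receptor. The immunoproteasome is a form of the 20S proteasome in which interferon-inducible beta subunits take the place of the constitutive catalytic subunits psmb5, psmb6 and psmb7, which shifts the peptides it makes towards those that MHC class I molecules present. Of the genes described here, psmb8a encodes an inducible counterpart of psmb5, and psmb13a is by the authors' account the orthologue of the inducible subunit β2i. psmb12 encodes a further beta subunit, and CABZ01058333.1 is annotated as an E3 ubiquitin-protein ligase resembling rnf213-alpha. In mammals ADAR1 marks self double-stranded RNA by editing it, and its loss is known for an interferon response through MDA5.

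At 7 dpf the deposited table holds 1 mean normalized count for each gene, the authors' mean over the 6 libraries of both genotypes, and no value of a single library. The mean was 1720.2 for isg15, the modifier itself. It was 264.1 for uba7, 157 for usp18 and 40.6 for CABZ01058333.1. Among the proteasome subunits it was 87.0 for psmb8a, 54.2 for psmb13a and 46.0 for psmb12. Over the 193 rows the median was 131, and the modifier and its activating and removing enzymes lay above it while the 3 proteasome subunits and the ligase-like gene lay below. These means are not scaled to gene length, so their order is one of reads and not of transcripts. Being listed as higher in adar-/- is what selected the genes, and so it is no result here. The size of the change rests on the authors' comparison and is not given.

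**Figure D1:**
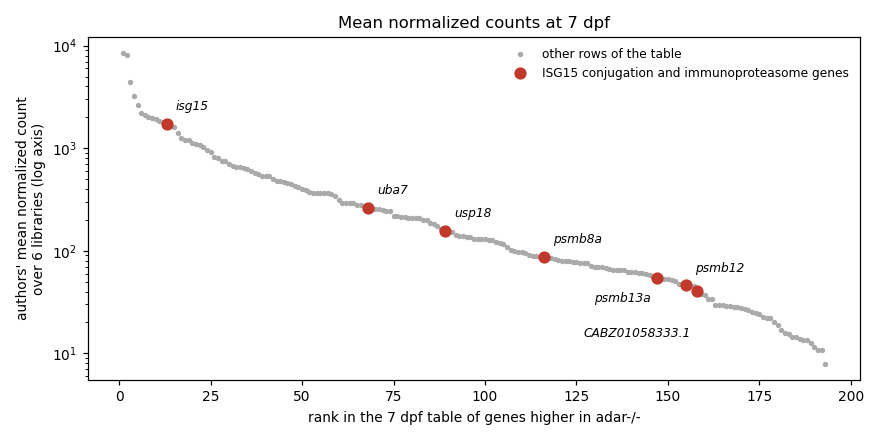
Authors' mean normalized count at 7 dpf, over 3 wild-type and 3 adar-/- libraries, on a log axis, for the 193 genes of the table of higher genes in order of that mean. The red points are the 7 genes described: isg15 stood at place 13, uba7 at 68, usp18 at 89, psmb8a at 116, psmb13a at 147, psmb12 at 155 and CABZ01058333.1 at 158.

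The 12 hpf tables also hold means only, but each of the 3 tables pools a different pair of the 3 groups, and the means are written to so many digits that the whole reads of the 9 libraries could be solved for. This gave 1 solution for 30408 of the 30420 genes with a read. Reads on these genes ran from 571161 to 1048679 per library, a small part of each library, since 88.8% to 89.5% of the normalized reads in the tables fell on no annotated gene. The SMARTer kit keeps the strand, and whether the counting at 12 hpf used it is not given in the sources used here, so sense and antisense reads of a gene cannot be told apart. Libraries of a group carry no replicate number in the tables and are called here the deep, the middle and the shallow library, by their size factor (1.09, 0.978 and 0.648 in control, 1.37, 1.19 and 0.878 in Adar KD, 1.31, 1.29 and 0.832 in Adar OE). A normalized count is the reads of a gene divided by this factor. The targeted gene, adar, had normalized counts of 325, 78.7 and 83.4 in the control libraries, 133, 101 and 89.9 in Adar KD and 327, 58.1 and 372 in Adar OE, so that the groups overlapped. Its log2 difference was -0.27 ± 0.49 (SE) in Adar KD and 0.58 ± 0.49 in Adar OE (adjusted p = 0.771 and 0.363, limma). Single libraries decided these values: in Adar OE the difference was 1.24 without the deep control library and 1.43 without the middle Adar OE library, both called (adjusted p = 0.0482 and 0.0209), and 0.10 without the shallow Adar OE library, and in Adar KD it turned to 0.39 without the deep control library. The morpholino blocks translation, and so RNA does not show whether it worked.

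Genes of low expression had more reads in the injected groups throughout. The share of all genes with at least 1 read was 53.7% to 65.3% in the control libraries, 70.2% to 81.0% in Adar KD and 80.5% to 84.7% in Adar OE. On the log2(normalized count + 1) scale, the median difference over the 24999 genes tested was 0.37 in Adar KD and 0.79 in Adar OE against control. With libraries scaled to total reads on the genes solved for (81.56% of the normalized counts on genes), it was 0.53 and 1.07. The differences of the 7 genes below are therefore given beside the median of genes of like expression, the median of the gene's own bin among 40, and those of the pathway lists beside the median of these medians over the list. The leukocyte markers, of which 7 of 9 could be matched, summed to 83.2 to 195 normalized counts in control, 124 to 147 in Adar KD and 94.9 to 110 in Adar OE. Of these, lyz and ptprc, the pan-leukocyte CD45 gene, had no control read. In Adar OE 2 of the 6 tested markers were called higher and 1 lower, where 26.5% of all genes were called higher and 7.76% lower. Named after their values were seen, these were ptprc and rag1 (log2 differences of 2.84 and 2.17) and lcp1 (-1.30), whose mean of 102 normalized counts in control made up most of the sum. As ptprc reached the mean of 1 normalized count required for a test only through the injected groups, no share is read from these calls. The 5 stage markers matched summed to 4052 to 7002 in control, 2727 to 4705 in Adar KD and 1799.9 to 2173 in Adar OE, of which krt4 made up most. In Adar KD 2 of the 5, her7 and myod1 (log2 differences of -2.92 and -3.13), were called lower, where 2.59% of all genes were. Both were called higher in Adar OE than in Adar KD, where 2.11% of all genes were. In Adar OE 3 of the 5 were called lower than in control, beside 7.76% of all genes. The part of leukocytes or of embryonic stage in the results below was not tested. In whole embryos fewer cells of a type and less RNA per cell cannot be told apart.

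The 7 genes had few reads in uninjected embryos at 12 hpf. Over all 7, the control libraries held 2, 4 and 2 reads, the Adar KD libraries 10, 22 and 27 reads, and the Adar OE libraries 33, 25 and 19 reads, from the deep to the shallow library. Every injected library thus held more reads of these genes than any control library. The share of all genes with a read was likewise higher in every injected library than in any control library. How many of all genes separate the libraries in this way was not counted, here or for the single genes below. No such separation is therefore read as particular to these genes. Of the 7 genes 5 (isg15, CABZ01058333.1, psmb8a, psmb12 and psmb13a) had no read in any control library, which over the group allows up to 3 reads for each. The same held for 7516 of all 32507 genes, or 23.1%, and for 46 of the other 186 genes of the 7 dpf table, or 24.7%. Of the 7 genes 4, isg15, uba7, usp18 and psmb13a, reached the mean of 1 normalized count that a test required. Of these uba7 alone also lay above it in control, at a mean of 2.66. As the controls held few reads, isg15, usp18 and psmb13a reached it only through the injected groups. The other 3 genes are given by their reads.

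**Figure D2:**
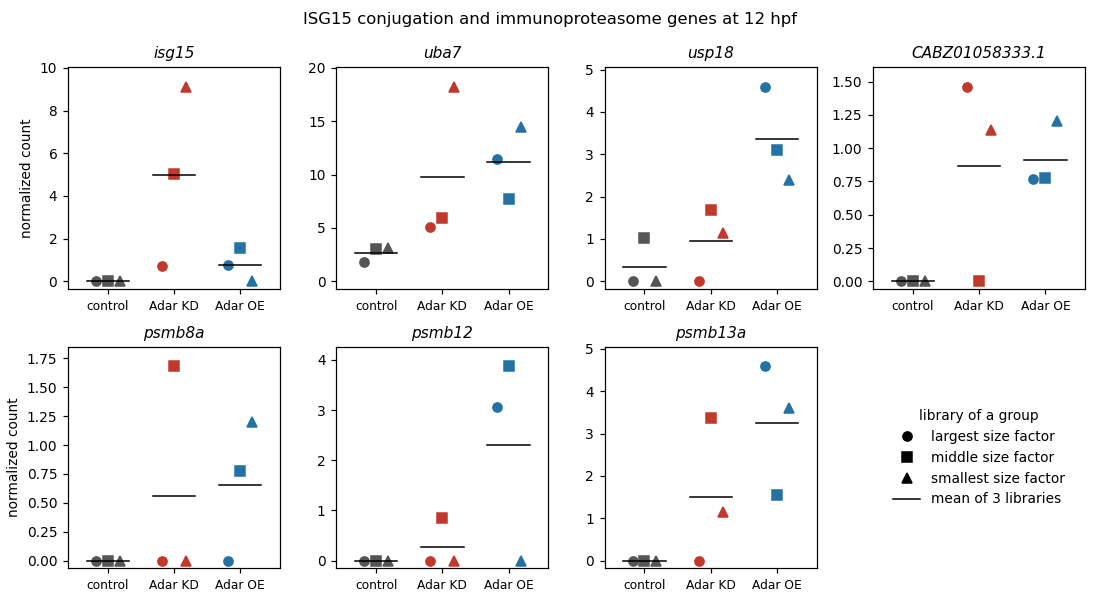
Normalized count of each of the 7 genes in the 9 libraries of 12 hpf. Each point is a library of 20 pooled embryos, its shape gives the size factor, and the line is the mean of a group (n = 3). In isg15 the Adar KD mean was 4.96 against 0 in control and 0.771 in Adar OE, while usp18, psmb12 and psmb13a had their highest mean in Adar OE; each panel has its own axis.

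isg15, the modifier, was higher in Adar KD. It had no read in the 3 control libraries, and 1, 6 and 8 reads in the deep, middle and shallow Adar KD libraries, which are normalized counts of 0.730, 5.04 and 9.11. The Adar OE libraries held 1, 2 and 0 reads. Every Adar KD library thus lay above every control library, although the deep one only by 1 read, and the Adar OE libraries overlapped with both groups. The mean in Adar KD was 4.96 ± 4.19 (SD, n = 3), which is 3.96 times a floor of 3 reads over the 3 control libraries. This ratio takes the Adar KD reads as exact and is no lower bound. The log2 difference was 2.24 ± 0.68 (SE) against a median of 0.53 for genes of like expression (limma, adjusted p = 0.0469). The exact 2-sided permutation test over the 6 libraries gave p = 0.1, the smallest that 3 against 3 allows. Of all genes tested 3.68% were called higher in this comparison and 2.59% lower, and uba7, usp18 and psmb13a were not called. Since isg15 reached the mean required for a test only through Adar KD, no share of genes called is read from this. The call lay close to the threshold. It was lost with a pseudocount of 0.5 (adjusted p = 0.0513), with the median of like genes taken off (0.189), in a fit of the 6 libraries compared (0.124), and without any one control library (0.0912 to 0.110) or the middle or shallow Adar KD library (0.147 and 0.145).

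In Adar OE isg15 stayed at the floor. The mean in Adar OE was 0.771 ± 0.774 (SD, n = 3), and the 3 reads behind it equal the floor, so that no fold against control is given. The log2 difference to control was 0.72 ± 0.68, below the median of 1.28 for genes of like expression (adjusted p = 0.413). Between Adar OE and Adar KD it was -1.52 ± 0.68, while genes of like expression had a median of 0.75 (adjusted p = 0.173, unadjusted p = 0.0343). In reads the Adar OE level was 0.200 times that of Adar KD, with an exact 95% counting interval of 0.0372 to 0.708. This interval leaves out the spread between libraries, over which the exact permutation test gave p = 0.3. Of all genes tested 2.11% were called higher and 2.69% lower in Adar OE than in Adar KD, and none of the 4 genes tested was called (limma; 1, isg15, at an unadjusted p under 0.05). At least 15 reads in Adar KD and none in control were met by 162 of all 32507 genes. With at most 3 reads in Adar OE as a further limit, 3 genes were left, isg15 among them and no other gene of the 7 dpf table. All these limits are the values of isg15 itself, taken after they were seen. A small count was thus set in advance, and no rarity is read from it.

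uba7, the activating enzyme, had reads in all 9 libraries. Its normalized counts were 1.83, 3.07 and 3.09 in the control libraries, 5.11, 5.88 and 18.2 in Adar KD and 11.5, 7.74 and 14.4 in Adar OE. Both injected groups lay above every control library, and they overlapped with each other. The means were 2.66 ± 0.721 in control, 9.74 ± 7.35 in Adar KD and 11.2 ± 3.35 in Adar OE (SD, n = 3). In reads this is 3.39-fold in Adar KD (exact 95% counting interval 1.46 to 9.14) and 4.19-fold in Adar OE (1.84 to 11.1) over control. The Adar OE difference of 1.72 ± 0.63 (log2, SE) was called (limma, adjusted p = 0.0373), and genes of like expression had a median of 1.29. The Adar KD difference was 1.37 ± 0.63 beside a median of 0.70 (adjusted p = 0.196). The exact permutation test gave p = 0.1 in both.

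usp18, the enzyme that removes ISG15, was highest in Adar OE. The control libraries held 0, 1 and 0 reads, the Adar KD libraries 0, 2 and 1 reads and the Adar OE libraries 6, 4 and 2 reads. Every Adar OE library lay above every library of the other groups, and Adar KD overlapped with control. The mean of 3.36 ± 1.12 normalized counts in Adar OE (SD, n = 3) compared with 0.341 ± 0.590 in control, a ratio of reads of 9.51 whose exact 95% counting interval ran from 1.41 to 407 because control held a single read. The log2 difference was 1.76 ± 0.65 beside a median of 1.39 for genes of like expression (limma, adjusted p = 0.0389). In Adar KD it was 0.50 ± 0.65 beside 0.56 (limma, adjusted p = 0.676). As usp18 reached the mean required for a test only through Adar OE, no support is drawn from its call there. That call was lost in 6 of 12 alternatives. Adar KD had the highest mean in isg15 and Adar OE in usp18, and this difference between the 2 genes was not tested.

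Of the 3 proteasome subunits among the 7 genes, psmb13a alone had enough reads for a test. It had no control read, 0, 4 and 1 reads in Adar KD and 6, 2 and 3 reads in Adar OE. All Adar OE libraries lay above control, and Adar KD overlapped with both. The mean in Adar OE was 3.25 ± 1.55 normalized counts (SD, n = 3), 2.91 times the floor of 3 control reads. That in Adar KD was 1.50 ± 1.71, 1.32 times the floor, and neither ratio is a lower bound. The log2 difference was 2.01 ± 0.66 in Adar OE (limma, adjusted p = 0.0223) and 1.07 ± 0.66 in Adar KD (adjusted p = 0.337), beside medians of 1.39 and 0.56 for genes of like expression. In this comparison, in which uba7, usp18 and psmb13a were called higher, 26.5% of all genes were called higher and 7.76% lower, and 42.2% of the other 154 tested genes of the 7 dpf table were called higher. As usp18 and psmb13a reached the mean required for a test only through the injected groups, no share is read from these calls. With the median of like genes taken off, none of the 3 remained called: the log2 differences fell to 0.43 for uba7, 0.36 for usp18 and 0.62 for psmb13a (adjusted p = 0.750, 0.797 and 0.635). Each of the 3 calls was also lost without any one of 5 of the 6 libraries.

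**Figure D3:**
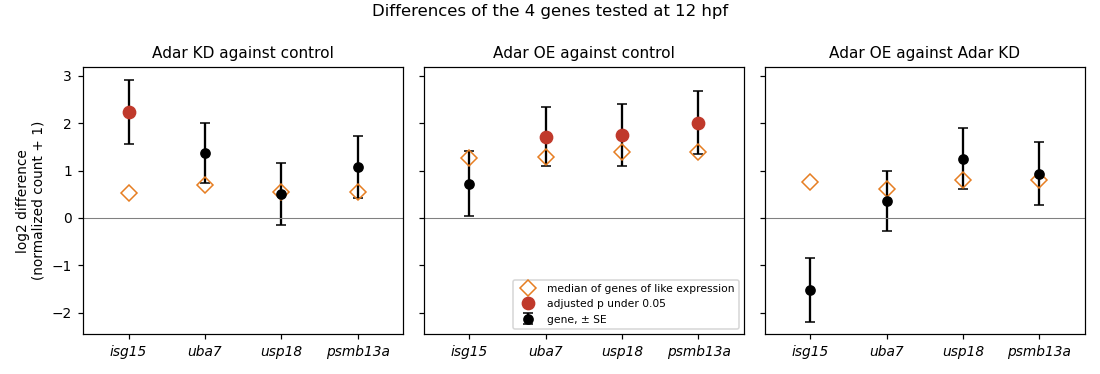
Log2 differences of the 4 tested genes in the 3 comparisons of 12 hpf, on the log2(normalized count + 1) scale, with their SE (bars), red where the adjusted p was under 0.05. The open diamonds give the median difference of genes of like expression: isg15 lay 1.71 above it in Adar KD against control, and the 3 genes called in Adar OE lay 0.36 to 0.62 above theirs.

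The 3 remaining genes held few reads in any group. psmb8a, the inducible counterpart of psmb5, had 0, 2 and 0 reads in the Adar KD libraries and 0, 1 and 1 in the Adar OE libraries, which is under the floor of 3 reads in both groups and allows no comparison. psmb12 had 0, 1 and 0 reads in Adar KD and 4, 5 and 0 in Adar OE. Its mean in Adar OE, 2.31 ± 2.04 normalized counts (SD, n = 3), was 2.38 times the floor, but the shallow library held none and the groups overlapped (exact permutation test, p = 0.4). CABZ01058333.1 had 2, 0 and 1 reads in Adar KD and exactly 1 read in each Adar OE library, at the floor in both. The 2 annotated rnf213 genes, which the same 7 dpf table lists, held more reads. rnf213a had means of 16.5 ± 4.91, 21.8 ± 16.4 and 47.0 ± 9.16 normalized counts in control, Adar KD and Adar OE (SD, n = 3). rnf213b had means of 7.19 ± 5.30, 5.77 ± 7.42 and 29.5 ± 7.30. Both were called higher in Adar OE than in control, with log2 differences of 1.48 (adjusted p = 0.0138) and 2.05 (adjusted p = 0.0208), and rnf213b also than in Adar KD, by 2.76 (adjusted p = 0.0157). The genes of like expression had medians of -0.07 and 0.81 against control and 0.47 against Adar KD. The call of rnf213b against Adar KD was lost without any one Adar OE library and without the deep or the shallow Adar KD library (adjusted p = 0.0523 to 0.152), and with the median of like genes taken off (0.0547). Against control it was lost without the deep control, deep Adar OE or shallow Adar OE library (adjusted p = 0.0617 to 0.0953), and that of rnf213a without the deep or the shallow Adar OE library (0.0605 and 0.0531). Among the 7 genes and the pathway lists, 20 genes were called in Adar OE against control. Tested were 7 constitutive beta subunits, 8 activators and assembly factors and 2 other beta subunits. To these came 9 genes of ISG15 conjugation, 9 of peptide loading, 2 rnf213 genes, 6 of interferon signalling, and psmb13a. As usp18, psmb13a, psmb11b, herc5.2, tap1 and tap2a reached the mean required only through the injected groups, no share is read from the 20. Of the 20, psmb1, psmb3, psmb4, psmb5, psmb7 and ube2e1 were lower and the others higher. Over all genes 26.5% were called higher and 7.76% lower in this comparison. Of the 20, rnf213a alone remained called with the median of like genes taken off (adjusted p = 0.0367, limma). CABZ01058333.1 and the rnf213 genes have like sequences by their annotation, and reads shared between such copies may be split or dropped.

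The 3 immunoproteasome subunits neighbour each other. By RefSeq (assembly GRCz12tu), from which no position is taken, psmb13a, psmb8a, psmb12, psmb9a and tap2a follow each other on 1 chromosome, and the gene model of psmb13a overlaps those of the 4 others. psmb9a encodes an inducible counterpart of psmb6, and tap2a a subunit of the transporter that brings peptides to MHC class I. Of the 5, 4 were listed at 7 dpf, all but psmb9a. At 12 hpf the 5 genes together held 0, 1 and 0 reads in the control libraries, 2, 8 and 3 in Adar KD and 30, 20 and 7 in Adar OE. Of the 57 Adar OE reads 33 were of tap2a, at 19, 11 and 3 in the 3 libraries, and psmb9a had 2. Most Adar OE reads of the run were thus of tap2a, at its end, whose log2 difference was 2.80 beside 1.75 for genes of like expression (adjusted p = 0.00573). Where gene models overlap, reads may be dropped or assigned to a neighbour, and this was not tested.

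The constitutive 20S beta subunits, psmb1 to psmb7, were lower in the injected groups wherever they were called. In Adar OE 5 of 7 were lower than in control and none higher, where 7.76% of all genes were called lower. With a filter at a mean of 10, which all 7 pass, 16.3% of genes were called lower there. The median log2 difference over the 7 was -1.23, beside -0.58 for genes of like expression and 0.79 over all genes tested. psmb3, which had the most reads, had means of 184 ± 96.1 normalized counts in control and 65.8 ± 8.60 in Adar OE (SD, n = 3), a log2 difference of -1.36 (adjusted p = 0.00329). For psmb5 and psmb7 it was -1.23 and -1.35 (adjusted p = 0.0079 and 0.00536), and the other 2 lower genes, named after their values were seen, were psmb1 and psmb4, at -1.11 and -1.35. In Adar KD 2 of 7 were lower, where 2.59% of all genes were, namely psmb5 and psmb7, with log2 differences of -1.20 and -1.28 (limma, adjusted p = 0.0283 and 0.0224). With the filter at a mean of 10 the share of genes called lower in Adar KD was 6.61%. All 7 lay below the median of genes of like expression in both comparisons, and none stayed called with it taken off. In the shallow control library the 7 genes summed to 943 normalized counts, against 436 and 552 in the other 2 controls, and the Adar KD calls of psmb5 and psmb7 were lost without that library (adjusted p = 0.127 and 0.0666) and without the middle Adar KD library (0.161 and 0.147). The call of psmb5 was also lost without the deep Adar KD library (adjusted p = 0.0829) and in a fit of the 6 libraries compared (0.0524), and that of psmb7 without the middle control library (0.0948). In Adar OE that of psmb1 was lost without the deep or shallow control or the deep Adar OE library (adjusted p = 0.0529 to 0.110) and with total reads as the scaling (0.0922), and that of psmb4 without the shallow Adar OE library (0.0683).

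Proteasome activators and assembly factors had no call in either comparison (limma, 8 tested of 11 named; 2 in Adar KD and 4 in Adar OE at an unadjusted p under 0.05), with median log2 differences of -0.66 in Adar KD and -0.81 in Adar OE beside 0.34 and 0.56 for genes of like expression. Among them psme2, a subunit of the interferon-inducible PA28 activator, had means of 194 ± 59.7, 150 ± 47.9 and 123 ± 46.6 normalized counts in control, Adar KD and Adar OE (SD, n = 3). Of the other inducible or tissue-specific beta subunits 4 of 8 names could be matched and 2, neither of them among the 7 genes, were tested. psmb10, an inducible counterpart of psmb7, had means of 15.2 ± 10.5, 11.4 ± 8.17 and 14.7 ± 9.48. psmb11b had no control read and means of 3.29 ± 4.49 in Adar KD and 4.55 ± 2.84 in Adar OE, the latter called higher (log2 difference 2.35 beside 1.61 for genes of like expression, adjusted p = 0.019). This call was lost without the middle Adar OE library (adjusted p = 0.0767) and with the median of like genes taken off (0.614). Of all genes 26.5% were called higher in this comparison. As psmb11b reached the mean required for a test only through the injected groups, no share is read from its call.

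In the wider list of ISG15 conjugation 9 of 13 names were matched and tested, 6 of them outside the 7 genes. Among these 6, herc5.2, herc5.3, herc5.4 and trim25 were also listed as higher at 7 dpf. The gene matched to herc5.3 through RefSeq is called slc47a2.2 by the authors, so its place in the list is uncertain. Of these 6, in Adar OE 1 was higher and 1 lower, and in Adar KD none was higher and 1 lower, beside shares of 26.5% and 7.76% of all genes in Adar OE and of 3.68% and 2.59% in Adar KD. The lower one was ube2e1, a ubiquitin-conjugating enzyme, at 81.7 ± 37.3, 34.5 ± 15.7 and 33.3 ± 2.72 normalized counts in control, Adar KD and Adar OE (SD, n = 3; log2 differences of -1.21 and -1.17, adjusted p = 0.0457 and 0.017), beside -0.19 and -0.48 for genes of like expression. Its Adar KD call was lost in 9 of 13 alternatives, among them a pseudocount of 0.5 (adjusted p = 0.0530) and each of 4 libraries left out (middle or shallow control, deep or middle Adar KD; 0.0975 to 0.213), and its Adar OE call without the shallow control or the deep Adar OE library (0.0925 and 0.0608) and with total reads as the scaling (0.0624). The higher one, named after its values were seen, was herc5.2, a HERC-family ligase gene. Its means were 0.820 ± 0.776, 5.60 ± 2.12 and 17.5 ± 1.13, and its log2 difference in Adar OE was 3.45 beside 1.52 for genes of like expression (adjusted p = 0.00109). The difference in Adar KD, 1.91, was not called (adjusted p = 0.0791). herc4 and herc5.4 had no call. The names ube2l6, herc5.1, herc6 and usp41 could not be matched. The conjugating enzyme UBE2L6 was thus not measured, and ube2e1 does not stand for it. As herc5.2 reached the mean required for a test only through the injected groups, no share is read from its call.

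Genes that load peptides on MHC class I were measured beside the immunoproteasome that makes those peptides. In Adar OE 5 of 9 tested genes were higher and none lower, where 26.5% of all genes and 42.2% of the other tested genes of the 7 dpf table were called higher. The list had a median log2 difference of 1.88 beside 1.61 for genes of like expression, and in Adar KD none was called (limma; 1 at an unadjusted p under 0.05), with a median of 1.08 beside 0.80. The 5 were nlrc5, the activator of MHC class I genes, with a log2 difference of 2.77 (adjusted p = 0.00441), tapbpl at 2.48, and, named after their values were seen, tap1 at 2.57, tap2a at 2.80 and erap2 at 1.88. Both tap1 and tap2a had a control mean of 0.341 normalized counts. They reached the mean required for a test only through the injected groups, so no share is read from the 5 calls. The call of tapbpl was lost without the shallow control or the deep Adar OE library (adjusted p = 0.0515 and 0.0502), and that of erap2 without any one library but the middle Adar OE one (adjusted p of 0.0601 or more) and with a pseudocount of 0.5 (0.0576) or no filter (0.0593). tap2t, the gene of highest mean in the list, had 50.3 ± 10.3, 55.4 ± 4.55 and 49.3 ± 3.97 normalized counts in control, Adar KD and Adar OE (SD, n = 3). Of 6 interferon signalling genes, stat2 at 3.10 (adjusted p = 0.00725) and irf1b, named after its values were seen, at 2.14 (adjusted p = 0.0322) were higher in Adar OE, a share near the 26.5% of all genes called higher there, and none was called in Adar KD (limma; 0 at an unadjusted p under 0.05). The 4 other genes, among them stat1a and irf1a, were not called. In Adar OE the list had a median of 1.17 beside 1.13 for genes of like expression. The call of irf1b was lost without any one library but the middle control one (adjusted p = 0.0529 to 0.155) and in a fit of the 6 libraries compared (0.0518).

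**Figure D4:**
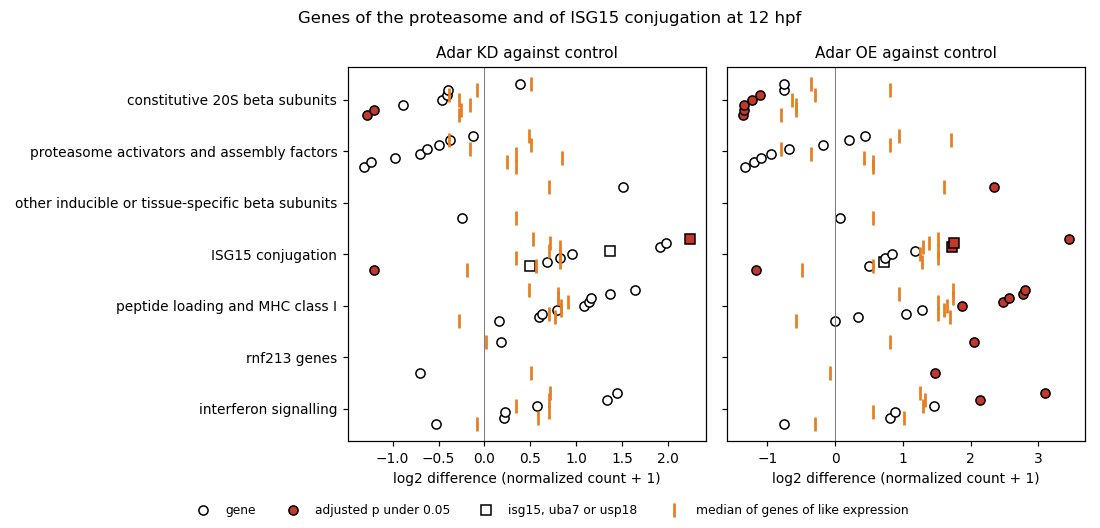
Log2 differences at 12 hpf of the tested genes of 7 gene lists, Adar KD against control (left) and Adar OE against control (right), on the log2(normalized count + 1) scale. Red symbols had an adjusted p under 0.05, squares are isg15, uba7 and usp18, and orange ticks give the median of genes of like expression: the constitutive subunits lie left of their ticks in both panels, and the 5 called peptide-loading genes lie right of 0 in the right panel.

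The genes whose values over the 9 libraries came nearest to a tested gene were found by the Euclidean distance of log2(normalized count + 1) among 24998 other genes. For isg15 the nearest was HSPA2, at a distance of 0.883, with no control read, 1, 4 and 12 reads in Adar KD and 2, 2 and 0 in Adar OE, and the second was BDKRB2 at 1.41. For uba7 the nearest were gfra1a at 1.14 and ITPRIP and cdc14aa, both at 1.19. For usp18 the nearest, ISL2 at 0.212, differed from it by 1 read in 1 library, and for psmb13a 2 of the 5 nearest had no symbol. The symbols are those of the names table, in part the human ones. None of the 4 tested genes was among the 5 nearest of another. psmb8a, psmb12 and CABZ01058333.1 lay below the mean required and took no part, so nothing is said of their likeness.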

How the data were processed

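RNA was sequenced from whole zebrafish at 12 hpf and 7 dpf. Per the labels and methods, the authors aligned reads with STAR 2.7.7a to GRCz10 (12 hpf) or GRCz11 (7 dpf in the methods, GRCz10 in the labels), counted them with HTSeq 0.11.2 and compared groups with DESeq2. The deposited signal values used here are the authors' means of normalized counts over the 6 libraries of a comparison. The other deposited columns hold the authors' log2 fold changes, standard errors, Wald statistics, p-values and adjusted p-values, and none was used. Rows that name no gene took 88.8% to 89.5% (no feature) and 7.72% to 8.27% (not unique) of the normalized counts and stayed out of the tests.

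Whole reads of the 9 libraries of 12 hpf were solved from the 3 pairwise means, given whole reads of at least 0 and 1 size factor per library. In all, 99.96% of genes with a read had 1 solution, while 12 genes of a mean of 3712 or more were not recovered and were left out. In simulated data 5999 of 6000 genes were recovered, 5999 rightly. limma 3.58.1 (R 4.3.3) was fitted with a mean-variance trend to log2(normalized count + 1) of all 9 libraries for genes of a mean of at least 1, with Benjamini-Hochberg adjustment and a threshold of 0.05. Differences are on that scale, which understates the change of low genes. For genes with no control read they depend on the pseudocount and are no bound. For single genes an exact 2-sided permutation test over libraries was run. In simulated data for Adar KD against control, 189 of 200 genes changed 4-fold were called and 7 unchanged ones. The simulation is summarized with 1 dispersion (spread between libraries) of 0.0679, and its calls were not broken down by expression. It therefore gives no rate of calls, right or wrong, for genes of as few reads as those described here. How often a change in such genes would be called was not tested. Ratios of reads carry exact 95% intervals, and these and the floor of 3 reads cover counting error only. A ratio to the floor takes the reads of the injected group as exact, so it is no lower bound. No count test was run. The 7 dpf means cannot be divided among libraries or genotypes, and the 2 ages were normalized separately, so no test was made at 7 dpf or across ages.

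Members and lists were chosen with earlier results of these data known. Named were the 7 genes, adar, up to 3 genes of highest mean from each list of the pathway, and genes among the 5 nearest by distance. Leukocyte and stage markers, and genes so marked in the text, were named after their values were seen. Of 75 list names 59 were matched. Alternatives changed the pseudocount, the filter, the scaling, the libraries fitted and each library in turn, or took off the median difference of genes of like expression (40 bins).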

Additional observations from a re-analysis of the deposited data

How the results depend on the processing

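Over the comparisons of the 4 tested genes, 112 of 141 alternatives kept the direction and the side of the threshold, 26 lost a call and 3 turned the direction. For 18 other genes of the lists, adar included, 219 of 292 did so, 69 lost a call, 2 gained one and 2 turned the direction. With the median of genes of like expression taken off, the log2 difference turned to -0.55 for isg15 in Adar OE against control, to -0.26 for uba7 in Adar OE against Adar KD and to -0.056 for usp18 in Adar KD against control. That of adar in Adar KD turned to 0.11, and leaving out 1 library gave -0.63 to 0.39. The call of isg15 in Adar KD was lost in 8 of 12 alternatives (adjusted p from 0.0198 to 0.189, limma), and those of uba7, usp18 and psmb13a in Adar OE in 6 of 12 each.

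Over all genes, 1567 were called in Adar KD against control, 8576 in Adar OE against control and 1200 in Adar OE against Adar KD. The counts became 761 and 1463 in the first and second with the median of like genes taken off, 747 and 2149 in the first and last with only the 6 libraries compared, 3189 in the second with a filter at a mean of 10, and 2431 in the last with a pseudocount of 5. Leaving out 1 library gave 570 (middle Adar KD) to 1655, 4848 (deep Adar OE; 5176 without the shallow one) to 7563, and 274 (deep Adar KD) to 3156 (middle Adar KD), the last count moving by over 1.5 times without any one of its 6 libraries. With total reads as the scaling, 89.7% of the calls in Adar OE against control were higher instead of 77.4%, and 72.1% instead of 58.6% in Adar KD. With a filter at a mean of 10 the shares were 44.7% and 45.3%, so that most calls were lower, and with the median of like genes taken off they were 53.8% and 50.9%. For Adar OE against Adar KD the share of 44% became 57.2% with total reads, 61.2% with a pseudocount of 5, 55.7% in a fit of the 6 libraries and 33.4% with the filter. A filter at a mean of 10 leaves none of the 7 genes tested. No paired analysis was possible because the libraries solved from the means carry no replicate numbers. Reads in the single digits limit every value of the 7 genes, that of uba7 through its 7 control reads, and the causes of these shifts were not tested.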
